A study of Arabidopsis thaliana with 12 samples.

Results

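Serine carboxypeptidase-like (SCPL) genes of Arabidopsis thaliana are described here across wild-type seedlings and seedlings without the IRE1 sensors of the endoplasmic reticulum (ER). The 8 genes are scpl25, scpl26, SCPL27, scpl29, scpl35, scpl46, scpl48 and SCPL49, out of 13356 genes with a named probe set of their own on the array. They were chosen by their measured tunicamycin change in wild type: the list holds every SCPL gene that passed downward there, and 7 other tested SCPL genes did not pass. The wild-type change is therefore given as a description. Of 51 SCPL genes in the RefSeq table, BRS1 and SNG1 included, 29 had a named probe set of their own, 1 for each of the 8 genes. The platform's gene table names no gene for 8730 of the 22746 probe sets that are not controls. Further SCPL genes may therefore be on the array without a name. The loci of the 8 genes are AT3G02110 (scpl25), AT2G35780 (scpl26), AT3G07990 (SCPL27), AT4G30810 (scpl29), AT5G08260 (scpl35), AT2G33530 (scpl46), AT3G45010 (scpl48) and AT3G10410 (SCPL49). All 8 passed the filter on low signal, against 7 of the 21 others.

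SCPL proteins carry an N-terminal signal that directs them into the ER, where they fold, form disulfide bonds and receive N-glycans before they are sent to the vacuole or the cell wall. They share the fold and the serine, aspartate and histidine triad of carboxypeptidases, enzymes that remove the last residue of a protein chain. Some members have become acyltransferases, such as SNG1, which makes sinapoylmalate, while BRS1 acts in brassinosteroid signalling. IRE1 is an ER membrane protein whose RNase domain splices the bZIP60 mRNA during ER stress and, in plants as in animals, cuts other mRNAs that are translated at the ER.

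Whole 10-day-old seedlings of the Columbia (Col-0) ecotype, grown at 22 °C, were compared in 4 groups of 3 arrays. The groups were ire1a ire1b double mutants with tunicamycin, ire1a ire1b double mutants with mock, wild type with tunicamycin, and wild type with mock. Tunicamycin, which blocks N-glycosylation, was given at 5 mg per litre for 5 h, and mock was its solvent DMSO. Every group, the mock groups included, had received the transcription inhibitor actinomycin D at 75 µM from 2 h earlier. A lower signal under tunicamycin is therefore read against seedlings given the same inhibitor. No array lacks actinomycin D, so how far it stopped synthesis was not checked. The labels give no mutant allele, and they do not say that replicates were separate cultures, so each p-value reflects only how far these arrays scatter, and that scatter may be technical.

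The 2% trimmed mean signal was 500.1 on all 12 arrays, and the median signal ranged from 107.0 to 119.2. The log2 ratio of 3' over 5' signal of the GAPDH and ubiquitin control transcripts, which follows RNA integrity, was 1.65 ± 0.24 in ire1a ire1b with tunicamycin and 1.51 ± 0.01 in ire1a ire1b with mock (SD, n = 3 each). It was 1.66 ± 0.18 in wild type with tunicamycin and 1.52 ± 0.07 in wild type with mock, and its part in the results below was not tested. The fixed shoot, root, seed and flower markers had no named probe set. Of genes picked in their place after the files were seen, the photosynthesis genes LHCB4.1 and PSAE-1 had signals of 20595.5 to 26288 and 21691 to 25484.5 over the 12 arrays. A further photosynthesis gene, LHCB4.2, had lower mean signals in the mutant: 4817 ± 1398 in ire1a ire1b with tunicamycin and 4311 ± 1478 in ire1a ire1b with mock, against 6677 ± 147 in wild type with tunicamycin and 6269.8 ± 847 in wild type with mock (SD, n = 3 each). Its part in the genotype comparisons was not tested. The seed oleosin gene OLEO3 had signals of 32.6 to 80.7. IRE1A and IRE1B had no named probe set, so the mutation was not checked on the arrays. In whole seedlings, fewer cells of one type and less RNA per cell cannot be told apart.

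In wild type, with actinomycin D in both groups, all 8 genes had lower signal with tunicamycin than mock, which the choice of genes fixes. In ire1a ire1b none of the 8 was called changed, where only 0.044% of all tested probe sets were called. The wild-type signals under tunicamycin ran from 33.3% of mock for scpl26 to 66.8% for scpl48, while in ire1a ire1b they ran from 89.4% of mock for scpl29 to 116.7% for SCPL27. The 3 wild-type tunicamycin arrays were the lowest of the 12 for each of the 8 genes. This holds for 7.12% of all tested probe sets, and part of it is fixed by the choice of genes. The plot of signals by array shows each value.

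**Figure D1:**
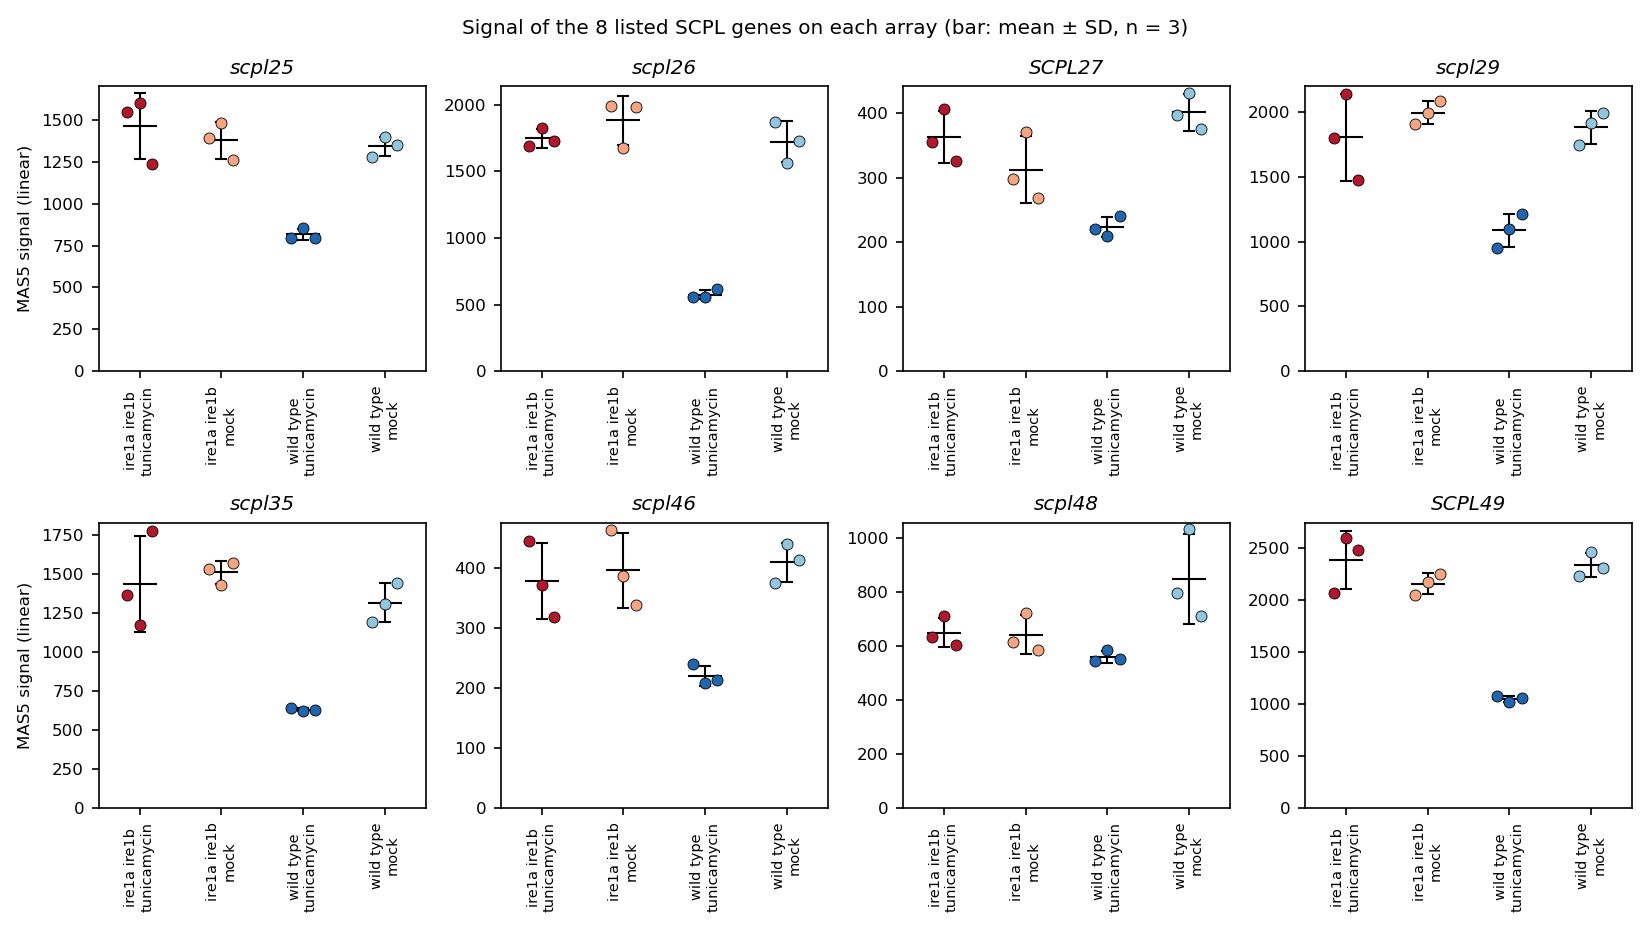
MAS5 signal on a linear scale (y axis) of the 8 SCPL genes in the 4 groups (x axis), with 1 point per array and the mean ± SD (n = 3) as a bar. In every panel the wild-type tunicamycin arrays lie lowest, and the scpl48 panel shows the smallest distance between them and the ire1a ire1b arrays.

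SCPL49 encodes carboxypeptidase Y, a vacuolar carboxypeptidase. Its signals were 2069, 2598 and 2484 in ire1a ire1b with tunicamycin, against 2048, 2170.3 and 2246 in ire1a ire1b with mock. They were 1072, 1016 and 1059 in wild type with tunicamycin, against 2229.9, 2459 and 2308 in wild type with mock. The groups overlapped in the mutant, and in wild type every tunicamycin array lay below every mock array. The log2 change was +0.14 ± 0.10 in ire1a ire1b and -1.15 ± 0.10 in wild type (SE of the model, n = 3 per group), which left 45.0% of the mock signal in wild type with a 95% interval of 38.6% to 52.4%.

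scpl26, a carboxypeptidase-like gene named by sequence, had the largest wild-type difference of the 8. Its signals were 1689, 1825 and 1727 in ire1a ire1b with tunicamycin, against 1994, 1673 and 1981 in ire1a ire1b with mock. They were 553.5, 553.5 and 612.7 in wild type with tunicamycin, against 1870.5, 1563 and 1731 in wild type with mock. The 3 wild-type tunicamycin arrays were close together and far below the other 9. The log2 change was -0.10 ± 0.11 in ire1a ire1b and -1.58 ± 0.11 in wild type, a fall that ranked 72nd in size among 13647 tested probe sets and left 33.3% of mock (28.4% to 39.2%).

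scpl35, likewise named by sequence, had signals of 1365, 1174 and 1775 in ire1a ire1b with tunicamycin, against 1531, 1429.99 and 1574 in ire1a ire1b with mock. It had 638.8, 622.0 and 630.1 in wild type with tunicamycin, against 1195, 1309 and 1446 in wild type with mock. The wild-type tunicamycin values differed little from each other, whereas array 3 of the mutant with tunicamycin was the highest of all 12. The log2 change was -0.09 ± 0.14 in ire1a ire1b and -1.06 ± 0.14 in wild type.

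The next 4 genes had wild-type differences of similar size. scpl46 had 445.4, 370.7 and 318.1 in ire1a ire1b with tunicamycin, against 462.7, 385.8 and 338.6 in ire1a ire1b with mock, and the groups overlapped. In wild type its signals were 239.0, 208.2 and 212.6 with tunicamycin, against 374.3, 440.1 and 412.8 with mock. The tunicamycin values lay apart from the mock values in wild type, and the log2 change was -0.07 ± 0.15 in ire1a ire1b and -0.89 ± 0.15 in wild type.

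SCPL27 had 355.9, 407.2 and 326.8 in ire1a ire1b with tunicamycin, against 298.5, 370.6 and 269.5 in ire1a ire1b with mock. In wild type it had 220.0, 209.6 and 240.2 with tunicamycin, against 397.6, 431.4 and 375.6 with mock. The mutant mock arrays lay between both wild-type groups, above wild type with tunicamycin and below wild type with mock. The log2 change was +0.22 ± 0.14 in ire1a ire1b and -0.85 ± 0.14 in wild type.

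scpl29 had 1799, 2143 and 1476 in ire1a ire1b with tunicamycin, against 1908, 1997 and 2086 in ire1a ire1b with mock. In wild type it had 952.1, 1095 and 1212 with tunicamycin, against 1743, 1913 and 1994 with mock. Array 3 of the mutant with tunicamycin was the lowest mutant array and still lay above all 3 wild-type tunicamycin arrays. The log2 change was -0.16 ± 0.13 in ire1a ire1b and -0.80 ± 0.13 in wild type.

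scpl25 had 1545, 1604 and 1238 in ire1a ire1b with tunicamycin, against 1391, 1481 and 1260.3 in ire1a ire1b with mock. In wild type it had 798.0, 854.9 and 795.0 with tunicamycin, against 1281, 1397 and 1349.9 with mock. The mutant groups overlapped each other and the wild-type mock group. The log2 change was +0.08 ± 0.12 in ire1a ire1b and -0.72 ± 0.12 in wild type.

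scpl48 is used as a marker of developmental cell death in plants. Its signals were 632.5, 710.5 and 604.6 in ire1a ire1b with tunicamycin, against 616.0, 722.8 and 585.7 in ire1a ire1b with mock. They were 543.0, 583.3 and 549.6 in wild type with tunicamycin, against 795.6, 1033 and 711.2 in wild type with mock. Its mutant means, 649.2 ± 54.9 with tunicamycin and 641.5 ± 72.0 with mock, lay between the wild-type means of 558.7 ± 21.6 with tunicamycin and 846.6 ± 166.8 with mock (SD, n = 3 each), nearer to tunicamycin. Its log2 change was +0.02 ± 0.14 in ire1a ire1b and -0.58 ± 0.14 in wild type, the smallest of the 8. Array 2 of wild type with mock was the highest, and without it the wild-type change was -0.43 ± 0.14 and no longer passed.

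The change between tunicamycin and mock in ire1a ire1b is a difference of mutant arrays alone, so it was tested. The spread behind its SE, however, was estimated from all 12 arrays, the wild-type arrays that chose the genes included, and the same test was therefore also run on the 6 mutant arrays by themselves. In the test across all 13647 probe sets (limma with Benjamini-Hochberg adjustment, adjusted p threshold 0.05), 0 of the 8 genes were called, beside 0.044% of all tested probe sets (6 in number). By unadjusted p below 0.05 the count was also 0 of 8, beside 3.67% of all tested probe sets. On the 6 mutant arrays alone it was 0 of 8 by adjusted p and 0 of 8 by unadjusted p, beside 2.40% of all tested probe sets by the unadjusted one. Shares this low leave little to read from a count of 0, and the intervals from the mutant arrays alone bound the change instead. Those 95% intervals reached down to a log2 change of -0.51 for scpl29 and up to +0.61 for SCPL27, that is 70.5% and 152.3% of the mock signal. For scpl26 the interval ran from 76.8% to 112.8% of mock, and for SCPL49 from 90.2% to 134.5%. Tunicamycin and mock arrays of the mutant overlapped for 8 of 8 genes. Separate groups were uncommon over all tested probe sets too, at 6.67%, so this count also leaves little to read. Mutant arrays of the same number deviated together, so the differences within these pairs were also read. SCPL27 was higher with tunicamycin in 3 of 3 pairs, by log2 values of 0.25, 0.14 and 0.28, and SCPL49 by 0.015, 0.26 and 0.15. scpl46 was lower in 3 of 3 pairs, with -0.055, -0.058 and -0.090. These 3 of 8 genes compare with 26% of all tested probe sets that kept 1 sign over the pairs. With the replicate as a block 0 of 8 were called, beside 11 of all 13647 tested probe sets, which again leaves little to read. The 8 log2 changes had a median of -0.02, beside +0.01 over all tested probe sets, with 4 above 0 and 4 below it.

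In wild type, all 8 were called lower, a count that the choice of genes fixes, beside 5.77% of all tested probe sets. Every tunicamycin array lay below every mock array for 8 of 8, beside 11.8% of all tested probe sets. The median log2 change of the 8 was -0.87, beside +0.09 over all tested probe sets. In order of the wild-type change, scpl26 came first, then SCPL49, scpl35, scpl46, SCPL27, scpl29, scpl25 and scpl48. The 95% intervals of neighbours in this order overlapped, those of scpl26 and SCPL49 only at their ends, and differences between genes were not tested. By size of fall the 8 ranked from 72nd to 921st among all tested probe sets.

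**Figure D2:**
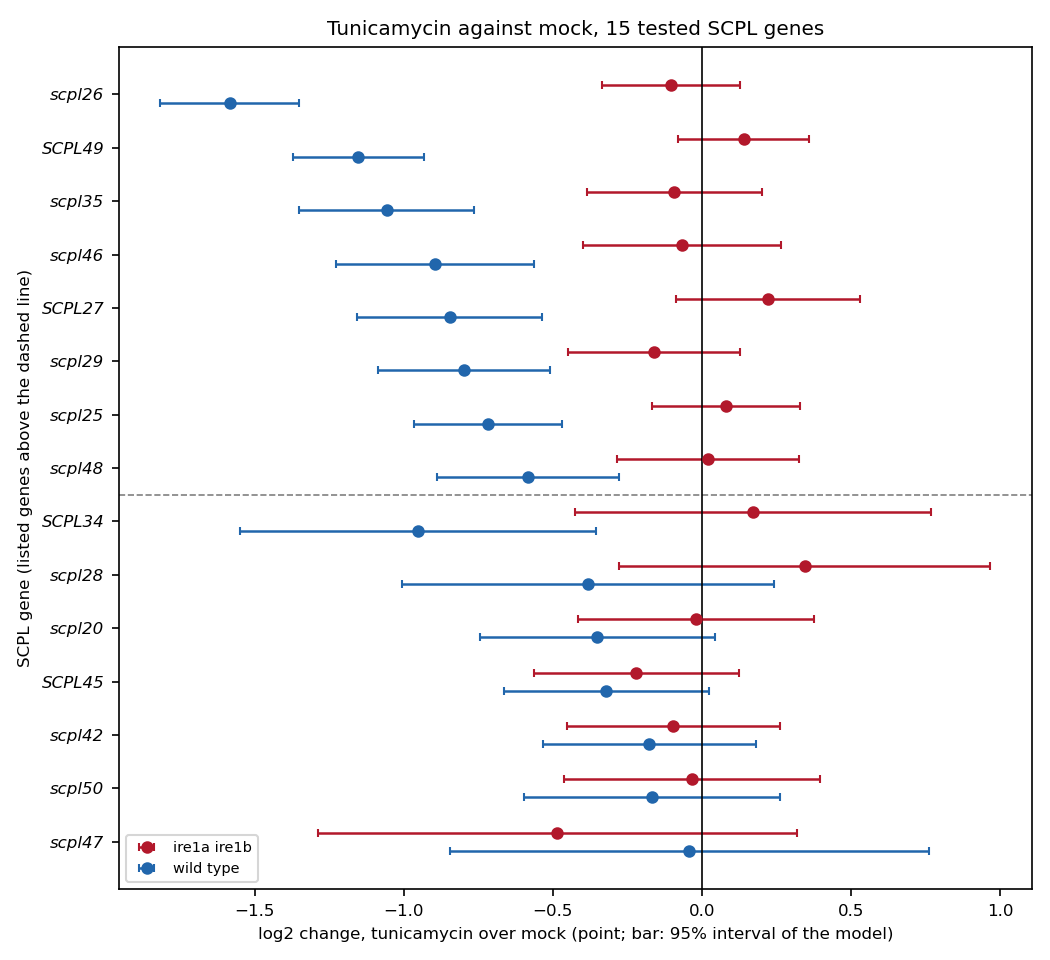
Log2 change of tunicamycin over mock (x axis) for the 15 tested SCPL genes (y axis), with ire1a ire1b above wild type for each gene and 95% intervals of the model as bars. The 8 genes above the dashed line have wild-type points from -1.58 to -0.58 and mutant intervals that all include 0; of the 7 genes below it, SCPL34 has the wild-type point furthest from 0.

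The response to tunicamycin was set against genotype by the interaction, the ire1a ire1b effect minus the wild-type effect. Its wild-type side is the change that chose the genes, so its values are a description. The interaction was above 0 for all 8, with a median of +0.90 beside -0.07 over all tested probe sets. Of the 8, 5 were called, beside 2.98% of all tested probe sets. The called genes were scpl26 (+1.48 ± 0.15), SCPL49 (+1.29 ± 0.14), SCPL27 (+1.07 ± 0.20), scpl35 (+0.97 ± 0.19) and scpl25 (+0.80 ± 0.16). scpl46 had +0.83 ± 0.22, scpl29 +0.64 ± 0.19 and scpl48 +0.60 ± 0.20, and these 3 stayed short of the threshold. Among the called genes, SCPL27 took the largest part of its interaction from the mutant side, with a mutant change of +0.22.

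**Figure D3:**
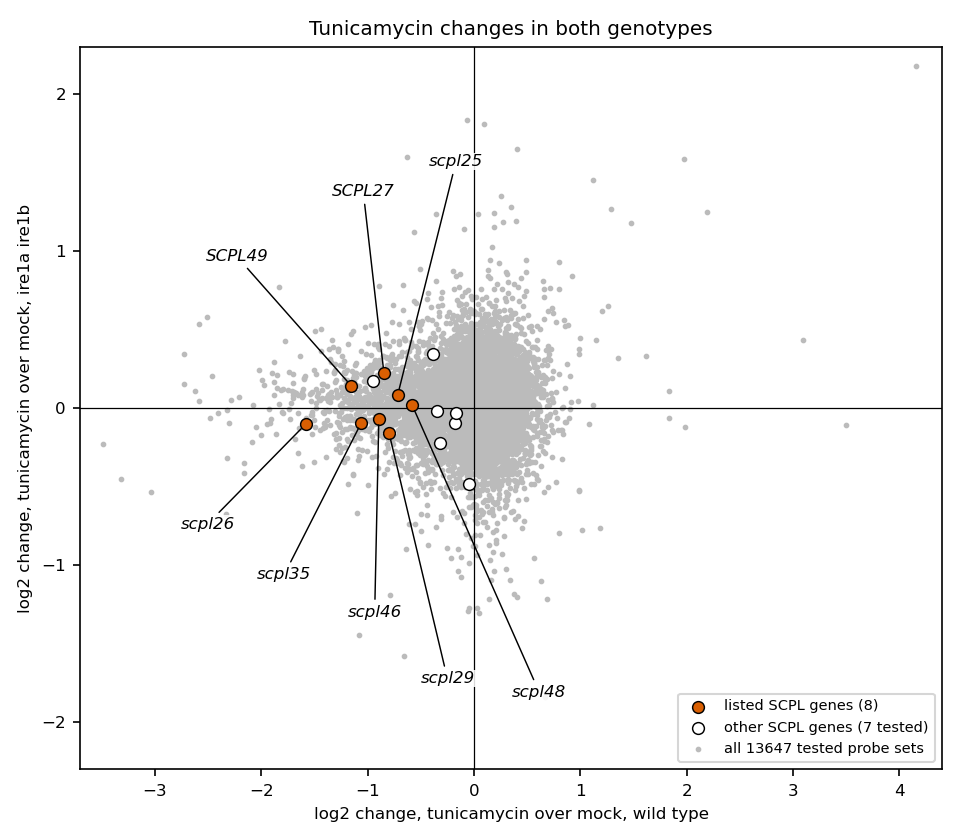
Log2 change of tunicamycin over mock in wild type (x axis) and in ire1a ire1b (y axis) for all 13647 tested probe sets (grey), the 8 SCPL genes (orange, named) and the 7 other tested SCPL genes (white). The 2 axes share no arrays, and the 8 genes spread to the left along the line of 0 mutant change, between -0.16 and +0.22 on the y axis.

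Under tunicamycin, signals of the 8 genes were higher in ire1a ire1b than in wild type. The wild-type tunicamycin arrays also took part in choosing the genes, so these values too are a description. scpl26 was 3.05-fold higher in the mutant, SCPL49 2.26-fold and scpl35 2.25-fold. scpl25 was 1.78-fold higher, scpl46 1.71-fold, scpl29 1.65-fold and SCPL27 1.62-fold. These 7 of 8 were called higher, beside 6.68% of all tested probe sets. scpl48, at a ratio of 1.16 (log2 +0.21 ± 0.14), was not called. Every mutant array lay above every wild-type array for 8 of 8, beside 11.5% of all tested probe sets, and the median difference was +0.80 on the log2 scale beside -0.08.

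Under mock, 0 of the 8 were called different between the genotypes in limma, beside 0.484% of all tested probe sets. The same count was reached with only the mock arrays in the fit. By unadjusted p below 0.05, 2 of 8 differed, both lower in ire1a ire1b, beside 8.08% of all tested probe sets in either direction. These were scpl48, at 641.5 ± 72.0 in ire1a ire1b against 846.6 ± 166.8 in wild type, and SCPL27, at 312.9 ± 52.1 against 401.6 ± 28.1 (SD, n = 3). Their log2 differences were -0.39 ± 0.14 (limma adjusted p = 0.47) and -0.37 ± 0.14 (limma adjusted p = 0.52). A high wild-type mock signal also favours a gene's choice, so a difference in this direction is partly built in. SCPL27 was the only one of the 8 whose mock groups did not overlap, beside 13.7% of all tested probe sets. The other 6 differed by log2 values between -0.11 for SCPL49 and +0.20 for scpl35.

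**Figure D4:**
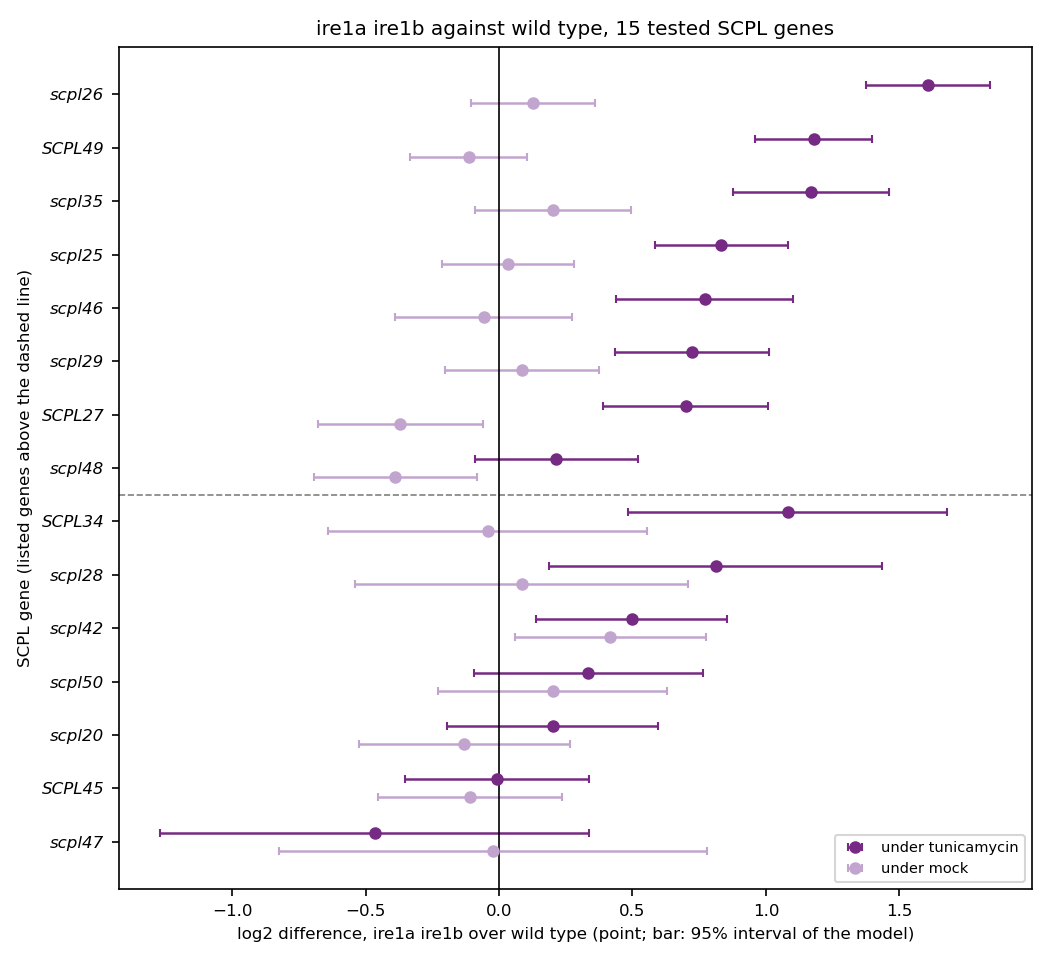
Log2 difference of ire1a ire1b over wild type (x axis) for the 15 tested SCPL genes (y axis), under tunicamycin above and under mock below for each gene, with 95% intervals of the model. The tunicamycin points of the 8 genes above the dashed line run from +0.21 for scpl48 to +1.61 for scpl26, and the mock points run from -0.39 to +0.20.

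Across the wider family, 15 SCPL genes with a named probe set of their own passed the filter on signal. The 8 called lower in wild type are 53.3% of these, beside the 5.77% of all tested probe sets. These calls chose the 8 genes, so the share is a description. All 15 wild-type changes were below 0, 8 of them by the choice of genes. Over all 13647 tested probe sets, 4526 were below 0. The 7 others had a median of -0.32, with values from -0.95 for SCPL34 to -0.04 for scpl47. Every wild-type tunicamycin array lay below every mock array for 3 of the 7 (scpl20, SCPL34 and SCPL45), beside 11.8% of all tested probe sets. Under tunicamycin, every ire1a ire1b array lay above every wild-type array for 4 of the 7 (scpl28, SCPL34, scpl42 and scpl50), beside 11.5%. The values on either side of the threshold were -0.58 ± 0.14 for scpl48, just inside, and -0.95 ± 0.28 for SCPL34, just outside. The model SD of the log2 signal ran from 0.20 to 0.46 in the 7 others and from 0.13 to 0.19 in the 8.

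SCPL34 had 297.7, 392.2 and 184.6 in ire1a ire1b with tunicamycin, against 245.2, 345.4 and 178.1 in ire1a ire1b with mock. In wild type it had 153.5, 123.7 and 119.8 with tunicamycin, against 233.3, 321.1 and 219.9 with mock. Its groups were separate in wild type and overlapped in the mutant, as for the 8 genes and for scpl20 and SCPL45. Its wild-type tunicamycin arrays too were the lowest of the 12. This was so for 1 of the 7 others, beside 7.12% of all tested probe sets. SCPL34 was also the only one of the 7 called in any comparison, higher in ire1a ire1b under tunicamycin by +1.08 ± 0.28. There 6.68% of all tested probe sets were called higher, so a count of 1 in 7 leaves little to read.

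SCPL45 changed by -0.22 ± 0.16 in ire1a ire1b and by -0.32 ± 0.16 in wild type, and scpl42 by -0.10 ± 0.17 in ire1a ire1b and by -0.18 ± 0.17 in wild type. For these genes the mutant and wild-type estimates lay within 1 SE of each other. scpl20, scpl28, scpl47 and scpl50 had wild-type changes between -0.38 and -0.04, with none called. scpl28 and scpl26 are adjacent protein-coding genes in the RefSeq table of the TAIR10.1 assembly. scpl26 kept 93.1% of its mock signal in ire1a ire1b and 33.3% in wild type, and scpl28 had 127.0% in ire1a ire1b and 76.7% in wild type, the last with a 95% interval of 49.8% to 118.2%.

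The other 14 SCPL genes with a probe set of their own did not pass the filter: scpl16, scpl18, scpl21, scpl22, scpl23, scpl30, scpl31, SCPL32, scpl33, scpl38, scpl40, scpl41, SCPL43 and scpl44. Their signals were between 0.95 and 95.9, and 8 of 168 array values, from 3 of these genes, lay above the filter value of 68.7. Without the filter, 0 of the 14 were called in any of the 5 comparisons in limma. Of all 22746 probe sets, that fit called 707 lower with tunicamycin in wild type, 8 changed in ire1a ire1b and 52 different under mock. It called 356 above 0 in the interaction and 822 higher in ire1a ire1b under tunicamycin. By unadjusted p below 0.05, tunicamycin in ire1a ire1b gave 0 of the 14, and each of the other 4 comparisons gave 1. The share of all 22746 by unadjusted p was not taken, so nothing is read from these counts. The 2 probe sets shared by several genes, scpl36 with scpl37 and scpl39 with AT3G56540, stayed below 6.29 on every array.

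The 8 genes had similar profiles over the 12 arrays. Pearson's r of log2 signal over the 28 pairs of genes had a median of 0.86, and all pairs share the same arrays and the low wild-type tunicamycin group that chose them. The highest value was 0.963, between SCPL49 and scpl26. The 7 pairs with scpl48 ran from 0.392 with scpl35 to 0.822 with SCPL27, and 6 of these were the lowest of all 28.

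Among 7354 other tested probe sets of 1 named gene, the profiles most like each of the 8 were looked up over the 12 arrays. SCPL49 was followed most closely by AT3G55430 (r = 0.985), by PYK10, the beta-glucosidase of ER bodies (0.982), and by AT1G02305, a cathepsin B-like protease gene (0.975). For SCPL27 the closest were EXGT-A3, a xyloglucan transglucosylase gene (0.973), COB, which guides cellulose deposition (0.969), and FATB, a plastid acyl-carrier thioesterase gene (0.958). For scpl26 they were AT3G54400 (0.994), AT3G56310 (0.991) and AT1G30130 (0.988). scpl25 was closest to AT5G11960 (0.986), AT3G28040 (0.983) and AT1G17080 (0.983), and scpl29 to AT5G51890 (0.977), AT1G71980 (0.975) and AT3G18215 (0.971). scpl35 was closest to AT3G48200 (0.978), AT5G65380 (0.969) and AT5G65760 (0.962), and scpl46 to the tetraspanin gene TET7 (0.968), AT5G62200 (0.959) and AT1G64650 (0.957). The values of scpl48 were lower, with AT3G23300 (0.922), AT3G03305 (0.912) and AT4G28940 (0.883). All 24 profiles in the top 3 of the 8 genes came from probe sets with a negative wild-type change, between -1.93 and -0.42, and their mutant changes lay between -0.19 and +0.19. The lookup used the same 12 arrays and genes chosen by their wild-type fall. Both ranges therefore follow largely from how the profiles were picked.

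Few genes of the fixed lists had a tested probe set. Of the developmental cell death list, to which scpl48 is known to belong as a marker, 1 of 7 genes was tested: PASPA3, an aspartyl protease gene, had +0.12 ± 0.24 in ire1a ire1b and fell in wild type by 0.90 on the log2 scale (SE 0.24, limma adjusted p = 0.036). DMP4 and EXI1 lay below the filter value, 4 genes had no named probe set, and no gene of the xylem list had one. The list of N-glycosylation and folding in the ER, the steps that SCPL proteins pass through, had 4 tested genes. In wild type 0 of these 4 fell, beside 5.77% of all tested probe sets, so that count leaves little to read. Only 1 rose, where 0.432% of all tested probe sets rose. That gene was CNX2, a calnexin (+0.77 ± 0.14 in ire1a ire1b and +0.71 ± 0.14 in wild type, limma adjusted p = 0.12 and 0.0045). The oligosaccharyltransferase subunit genes OST1A and OST1B had -0.02 ± 0.12 and -0.01 ± 0.10 in ire1a ire1b and -0.33 ± 0.12 and +0.08 ± 0.10 in wild type. CRT2, a calreticulin gene, had +0.32 ± 0.13 in ire1a ire1b and -0.02 ± 0.13 in wild type. Of 4 tested ER stress probe sets, 2 rose in wild type, beside the same 0.432%. In the mutant 0 were called, beside 0.044% of all tested probe sets, so that count leaves little to read. The genes that rose were DER1, an ER degradation factor (+0.52 ± 0.15 in ire1a ire1b and +0.86 ± 0.15 in wild type), and BZIP60, the spliced target of IRE1 (+0.20 ± 0.17 in ire1a ire1b and +0.67 ± 0.17 in wild type). BZIP28, a membrane-bound transcription factor gene, had +0.63 ± 0.19 in ire1a ire1b and -0.04 ± 0.19 in wild type. ERDJ3B, an ER co-chaperone gene, had +0.55 ± 0.11 in ire1a ire1b and -0.18 ± 0.11 in wild type. Its interaction of +0.73 ± 0.16 was called (limma adjusted p = 0.020), beside 2.98% of all tested probe sets. No other tested gene of these lists was called by the interaction.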

How the data were processed

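Total RNA was measured on 12 one-colour arrays. The deposited values are linear intensity per probe set (called signal). Per the submitters' processing notes they come from MAS5, whose version was not given in the sources used here. Every array had the same trimmed mean, so changes are relative to the bulk of the array. Probe sets were named through the platform's gene table and RefSeq (TAIR10.1); 13436 matched. Of 22746 probe sets that are not controls, 13647 with a mean log2 signal above the 40th percentile (6.10, a signal of 68.7) were fitted in limma 3.58.1 (R 4.3.3), with 1 mean per group and an intensity trend. Tests were two-sided, and p was adjusted over all 13647 by Benjamini-Hochberg with a threshold of 0.05. The scripts were tested on simulated data. Named genes are all SCPL genes, the 3 closest profiles of each of the 8 and up to 4 tested genes per list; LHCB4.1, LHCB4.2, PSAE-1 and OLEO3 were added after their values were seen. The members and lists were chosen with earlier results of these data known. Same-numbered mutant tunicamycin and mock arrays deviated together (r of 0.11, 0.44 and 0.51, each above the minimum of 0.1), which counts as pairing there; other groups did not meet this. Alternatives covered the filter, a pseudocount of 50, normalization, the trend, a replicate block, the samples fitted and each array left out. Protein sequences were not used here.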

Additional observations from a re-analysis of the deposited data

Results flagged for a closer look

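By the interaction in limma, 5 of the 8 SCPL genes were called, beside 2.98% of all tested probe sets. They were scpl26 (+1.48), SCPL49 (+1.29), SCPL27 (+1.07), scpl35 (+0.97) and scpl25 (+0.80 on the log2 scale, ire1a ire1b effect minus wild-type effect). The wild-type side of each value is the change that chose the genes, so the count and the values are a description. In the mutant the same 5 genes had log2 changes of -0.10, +0.14, +0.22, -0.09 and +0.08.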

How the results depend on the processing

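Over all alternatives run, the count of the 8 SCPL genes called stayed at 0 for tunicamycin in ire1a ire1b, at 7 under tunicamycin between genotypes and at 0 under mock. It was 7 to 8 for tunicamycin in wild type when 1 array was left out, and 8 under the other settings. The gene lost was scpl48, whose wild-type call ended in 5 of the 12 fits without 1 array (adjusted p of 0.057 to 0.13 in limma; wild-type mock arrays 1 and 2, and each wild-type tunicamycin array). In those 5 fits, 557 to 651 of all 13647 probe sets were called lower in wild type, against 788 in the main fit. The interaction count of 5 became 5 to 7 without 1 array: scpl46 passed without ire1a ire1b tunicamycin array 3 or mock array 1, and scpl29 without that tunicamycin array. With replicate as a block it was 7, with scpl46 and scpl48 added (adjusted p of 0.030 and 0.043 in limma). scpl46 also passed with quantile normalization and with a filter at the 60th percentile. Interaction calls above 0 over all probe sets moved too, from 406 to 605 with the block and 606 without ire1a ire1b tunicamycin array 3. They were 290 without ire1a ire1b mock array 1, 412 with quantile normalization and 434 of 9098 with the 60th percentile filter. The block changed no other call of the 8 genes. Signs turned only when 1 array was left out, for values near 0: in ire1a ire1b, scpl35 ranged from -0.25 to 0.044, scpl46 from -0.19 to 0.051 and scpl48 from -0.047 to 0.11, and under mock, scpl25 ranged from -0.019 to 0.10 and scpl46 from -0.18 to 0.050. Over all probe sets, the 6 calls in ire1a ire1b became 11 with the replicate block and 1 with the mutant's arrays alone, and 3 when ire1a ire1b mock array 2, ire1a ire1b mock array 3, ire1a ire1b tunicamycin array 1 or wild-type tunicamycin array 2 was left out. The 66 under mock became 105 with the block, 42 with the mock arrays alone, 103 without ire1a ire1b tunicamycin array 3, and 32 to 34 without ire1a ire1b mock array 1 or any wild-type mock array. With 3 arrays per group, the number of arrays limits the precision.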
